A study of Mus musculus with 8 samples.

Results

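The 10 genes described here carry out or control the making of fatty acids from sugar in liver. They are Srebf1 and Mlxipl, which encode the transcription factors SREBP-1 and ChREBP, the enzymes Acly, Acaca, Acacb, Fasn, Scd1, Elovl6 and Me1, and Thrsp, which encodes the protein Spot 14. They were taken by name from a deposited table of raw counts, where all 10 were found among 16122 genes. Of these, 9 passed the filter on low counts and were tested, and Elovl6 did not. RNA from frozen liver of male C57BL/6J mice, an inbred strain, was sequenced in bulk in 8 libraries, 4 labelled NASH (nonalcoholic steatohepatitis, a fatty and inflamed liver) and 4 labelled WT, all of wild-type genotype. The design text describes mice bought at 8 weeks of age and kept for 28 weeks on a normal diet or on one high in fat, cholesterol and fructose. That NASH stands for the rich diet and WT for the normal one is read from the names, since the labels do not tie the groups to the diets. Nor do the labels say whether each library comes from a separate mouse, and the spread that the p-values rest on may be in part technical.

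In the liver, SREBP-1c is made as a precursor in the endoplasmic reticulum, where Scap escorts it to the Golgi for cleavage and the Insig proteins hold it back. Insulin and the oxysterol-sensing liver X receptors (LXR) raise transcription of its gene. ChREBP pairs with the protein Mlx, responds to sugar metabolites, and acts with SREBP-1c on shared target genes. Those targets turn citrate into acetyl-CoA, malonyl-CoA and palmitate, then lengthen and desaturate the product.

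The counts summed to between 25760117 and 32684719 per library. Levels are given as CPM (counts scaled to a common library size) after TMM scaling, edgeR's method of trimmed means, and a change is the log2 fold change of NASH over WT with its standard error (SE). Across the 12351 genes tested, edgeR's quasi-likelihood test called 1597 higher in NASH (12.9%) and 741 lower (6.00%) at a Benjamini-Hochberg adjusted p under 0.05. The median gene stood at 0.01, and rose to 0.37 with library totals alone. It rose to 1.07 when libraries were scaled to their hepatocyte marker counts. Where a lipogenic gene is described, its change under those scalings is therefore also given relative to the median gene. Taking off the median gene largely undoes the scaling, so such a value is no separate check of the TMM result. For genes of the related lists, changes under those scalings are given as they stand. Their signs are to be read beside those medians. Higher genes made up 68.3% of the calls with TMM, 93.3% with library totals alone and 99.5% with hepatocyte scaling. Leaving out NASH replicate 1 gave 3742 calls and leaving out NASH replicate 4 gave 1114. Leaving out a WT library gave 821 (replicate 1), 1298 (replicate 2), 1085 (replicate 3) or 1292 (replicate 4).

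The NASH libraries were unlike each other in cell type markers. The 15 hepatocyte markers summed to 97793, 94462, 42944 and 99148 CPM in NASH replicates 1 to 4, against 138305 to 170063 in WT. Alb alone gave 77283, 75863, 31693 and 79641 CPM of the NASH sums and 112226 to 147253 of the WT ones. The sum and the hepatocyte scaling therefore rest mostly on this 1 gene. Of the 15 markers, 12 were below 0 and only 1 passed (Asgr2, lower). The 11 macrophage markers summed to 693, 783, 2390 and 1620 CPM in NASH and to 148 to 389 in WT, and 10 of them rose. NASH replicate 3 was thus the lowest library for hepatocyte markers and the highest for macrophage markers. The 11 stellate cell markers summed to 636 to 1787 CPM in NASH and 358 to 486 in WT, with 9 higher, while the 10 endothelial markers ranged from 284 to 585 and from 216 to 393, with none of the 9 tested called. The 8 cholangiocyte markers ranged from 108 to 758 and from 81.5 to 121 CPM, with Krt7 and Spp1 the 2 called among 7 tested. Of the 10 adipocyte markers, Plin1 and Lep had 3 or fewer counts in all libraries together and Adipoq was at 0 in 5 of the 8 libraries, whereas Cidec, Fabp4 and Pparg rose. In bulk tissue, fewer cells of a type and less RNA per cell cannot be told apart, and the part of cell composition in the results below was not tested.

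The promoters of 4 of the genes are shown because they belong to the gene that rose (Srebf1), the gene that fell (Acly), the gene most spread among the NASH libraries (Thrsp) and the synthase itself (Fasn). Each sequence runs 5′ to 3′ on the gene's own strand, from 250 bases before to 50 bases after a RefSeq transcription start of build GRCm38.p6, and capitals mark matches to the motifs named after it.
Srebf1, start of the 1c form, chr11:60210422-60210721, minus strand: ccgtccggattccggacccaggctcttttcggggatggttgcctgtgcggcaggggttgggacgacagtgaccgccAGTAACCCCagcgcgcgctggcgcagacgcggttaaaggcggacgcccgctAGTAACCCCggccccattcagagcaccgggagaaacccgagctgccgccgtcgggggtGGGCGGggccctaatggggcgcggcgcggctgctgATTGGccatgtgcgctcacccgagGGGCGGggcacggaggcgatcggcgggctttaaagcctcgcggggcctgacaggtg
Acly, chr11:100527951-100528250, minus strand: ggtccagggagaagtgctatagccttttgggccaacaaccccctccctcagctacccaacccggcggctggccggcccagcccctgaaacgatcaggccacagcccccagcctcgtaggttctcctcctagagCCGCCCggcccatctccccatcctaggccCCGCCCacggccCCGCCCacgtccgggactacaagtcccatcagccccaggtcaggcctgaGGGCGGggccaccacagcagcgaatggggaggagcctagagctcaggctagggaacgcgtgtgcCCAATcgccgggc
Fasn, chr11:120824498-120824797, minus strand: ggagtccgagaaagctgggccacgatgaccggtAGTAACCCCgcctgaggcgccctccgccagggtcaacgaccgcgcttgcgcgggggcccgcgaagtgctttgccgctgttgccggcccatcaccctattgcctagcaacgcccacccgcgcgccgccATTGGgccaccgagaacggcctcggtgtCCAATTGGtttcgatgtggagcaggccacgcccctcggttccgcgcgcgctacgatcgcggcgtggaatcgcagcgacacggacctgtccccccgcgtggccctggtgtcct
Thrsp, chr7:97417501-97417800, minus strand: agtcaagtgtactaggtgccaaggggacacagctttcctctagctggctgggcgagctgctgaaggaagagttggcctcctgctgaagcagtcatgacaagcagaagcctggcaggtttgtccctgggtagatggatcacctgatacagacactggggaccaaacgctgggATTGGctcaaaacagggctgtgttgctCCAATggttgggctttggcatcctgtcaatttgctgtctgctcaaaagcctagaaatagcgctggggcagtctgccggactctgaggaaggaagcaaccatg

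The search covered both strands of 13 windows for 9 of the genes, as Scd1 had no entry, and its yield is set beside that in all 32851 promoters of 300 bases. The CCAAT box (CCAAT), which NF-Y binds, was found in 8 of the 13 windows and in 37.4% of all promoters. GC boxes (GGGCGG), which Sp1 binds, stood in 5 windows and in 35.7% of promoters, and the Acly window holds 4 such boxes. The E-box CACGTG occurred in 1 Mlxipl window and in 7.15% of promoters, and the form of the sterol response element searched (TCACNCCAC) in the other Mlxipl window and in 1.24%. The looser E-box CANNTG, which contains CACGTG and is not capitalised, was in 10 windows and in 72.3% of promoters. In the Fasn window a CCAAT and an ATTGG, its reverse complement, overlap in one run. The letters AGTAACCCC are part of the LXR element known from the Srebf1 1c promoter and were added to the search after the sequences had been read. They occurred at 2 places in the Srebf1 1c window (−174 and −123 from the start), at 1 in the Fasn window (−217), and in 0.134% of all promoters. These are matches of letters, and no binding was measured.

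**Figure D1:**
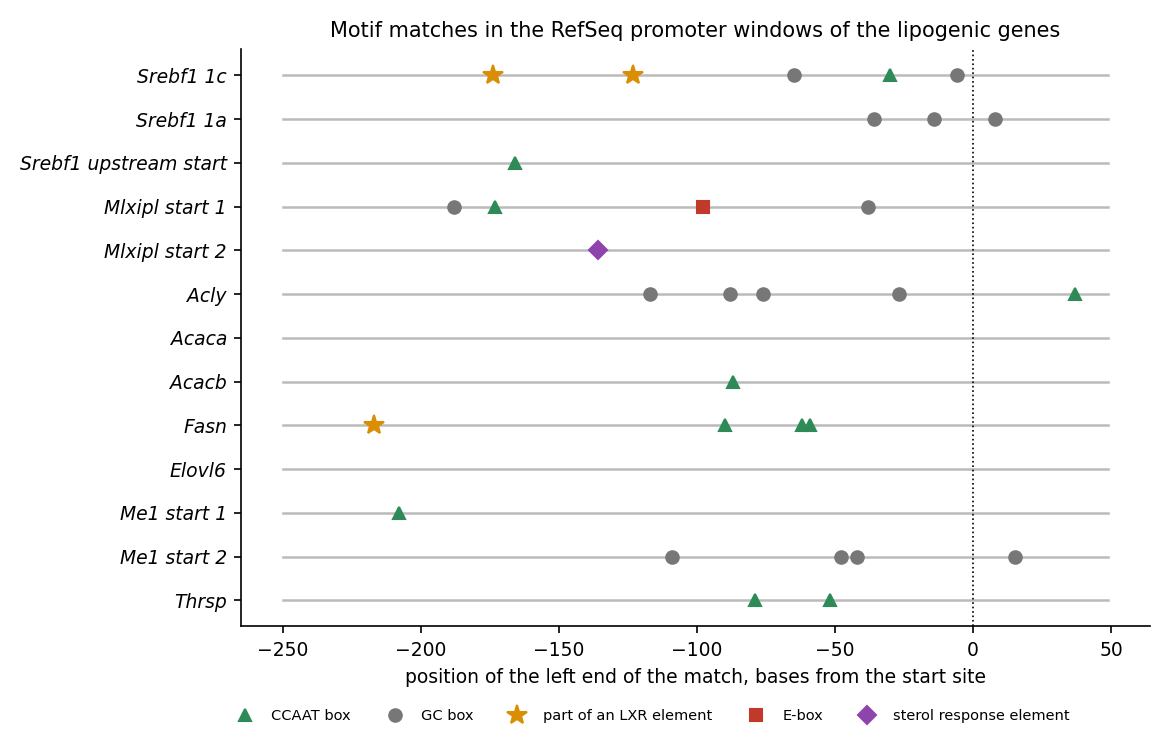
Motif matches in the RefSeq promoter windows of the lipogenic genes. Each line is 1 of the 13 windows, the x axis gives the left end of a match in bases from the transcription start, and symbols stand for the motifs, of which AGTAACCCC was found in the Srebf1 1c and Fasn windows.

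Of the 9 genes tested, 1 rose (Srebf1), 1 fell (Acly) and 7 did not pass, beside 12.9% of all genes called higher and 6.00% called lower. With 9 genes, shares of 1 in each direction are near those backgrounds. The median change of the 9 was −0.56, with 6 below 0, against a median of 0.01 and 49.1% below 0 over all genes tested, and the 9-gene median became −0.23 with library totals alone and 0.44 with hepatocyte scaling. Both calls were also made whichever 1 of the 8 libraries was left out. The highest edgeR adjusted p was then 0.0214 for Srebf1 (without WT replicate 1) and 0.0491, close to the threshold, for Acly (without NASH replicate 4).

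**Figure D2:**
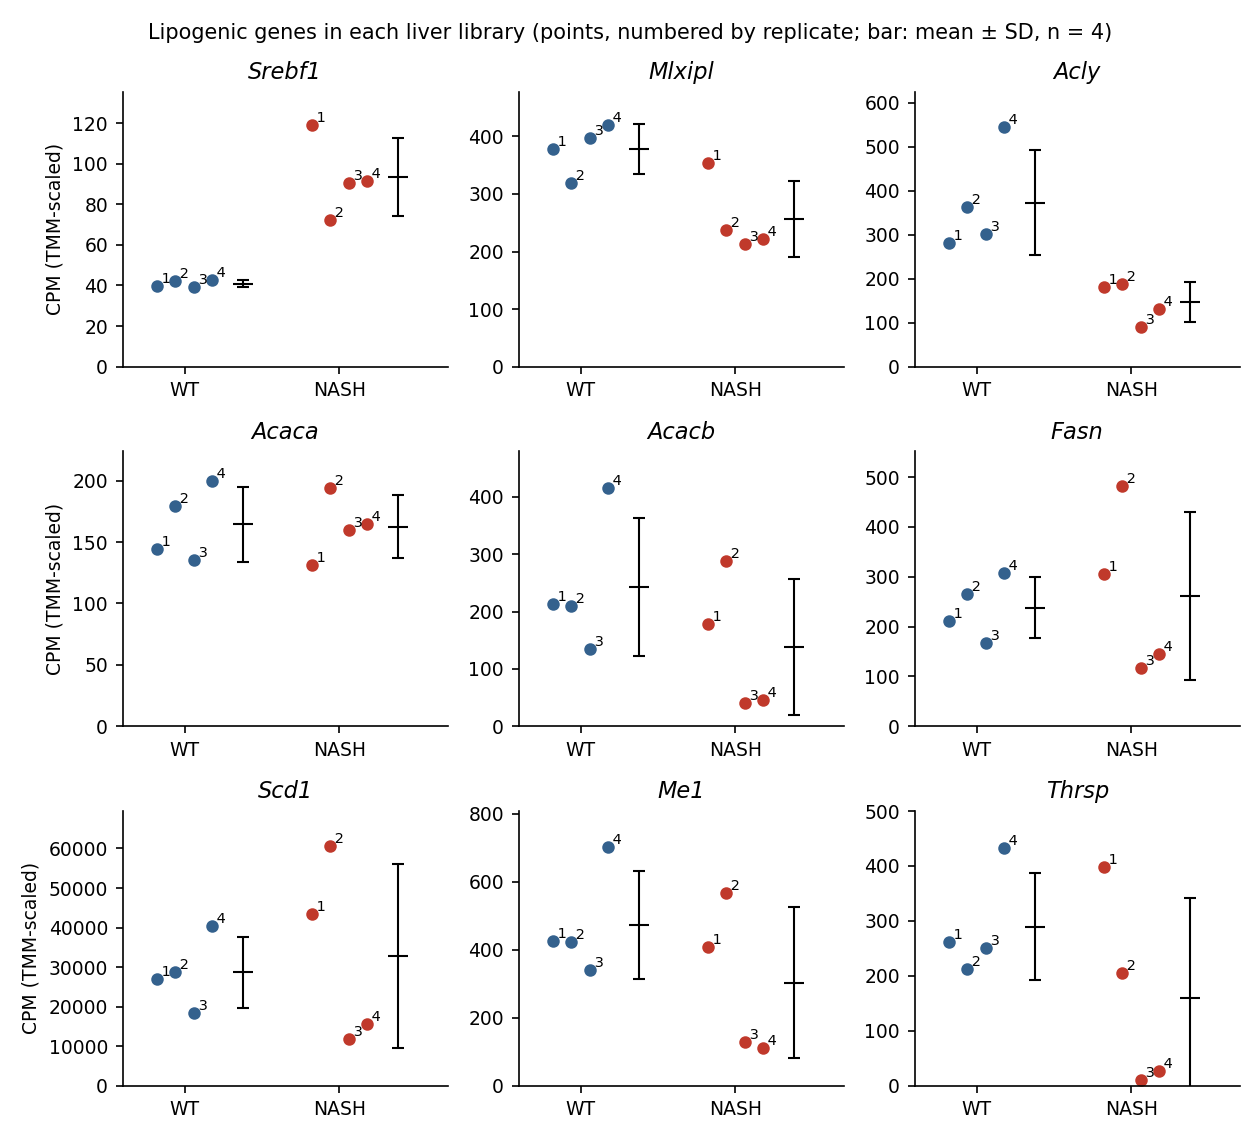
Level of each tested gene in every library, in TMM-scaled CPM on the y axis from 0, with WT libraries in blue and NASH libraries in red, numbered by replicate, and bars for the mean ± SD of 4. The groups separate for Srebf1 and Acly, while NASH replicates 3 and 4 lie under every WT library for Acacb, Fasn, Scd1, Me1 and Thrsp (the lower SD bar of Thrsp in NASH runs past 0 and is cut there).

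Srebf1 (ENSMUSG00000020538, GRCm38 chromosome 11, 60199089 to 60222581, minus strand) encodes the factor that drives the fatty acid synthesis genes. It stood at 119, 72.4, 90.4 and 91.7 CPM in NASH replicates 1 to 4 and at 39.5, 42.4, 39.1 and 42.5 in WT replicates 1 to 4. Every NASH library lay above every WT library, a separation in that direction seen for 14.6% of all genes tested. The WT libraries were within 1.09-fold of each other, against a median of 1.36-fold over 12152 genes with a count in each library. Srebf1 rose 2.28-fold, with group levels of 40.9 ± 1.82 CPM in WT and 93.3 ± 19.1 in NASH (mean ± SD of 4 libraries). The log2 fold change was 1.19 ± 0.14 (SE, edgeR adjusted p = 0.00349). Its change was 1.54 with library totals alone and 2.24 with hepatocyte scaling, which is 1.17 above the median gene under both. The gene has separate starts for the 1a and 1c forms, and counts per gene do not tell which form changed. Macrophage and stellate marker sums were also above WT in all 4 NASH libraries. Within NASH, Srebf1 was highest in replicate 1, the NASH library lowest in both sums. The part of cell composition in the Srebf1 change was not tested.

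Mlxipl (ENSMUSG00000005373, chromosome 5, 135089890 to 135138382, plus strand), the gene of ChREBP, measured 354, 238, 213 and 221 CPM in NASH and 378, 319, 398 and 420 in WT. NASH replicate 1 lay inside the WT range and the other 3 NASH libraries below it. The change was −0.56 ± 0.20 and did not pass (edgeR adjusted p = 0.075). It passed without NASH replicate 1 (−0.76, adjusted p = 0.00937) and with DESeq2 (−0.57, adjusted p = 0.0172), and its sign turned with hepatocyte scaling (0.44, or −0.64 relative to the median gene).

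Because both factors act on the same enzymes, their ratio was taken within each library, which removes the effect of scaling. The log2 ratio of Srebf1 to Mlxipl counts was −1.58, −1.71, −1.24 and −1.27 in NASH and −3.26, −2.91, −3.35 and −3.30 in WT. All 4 NASH libraries lay above all 4 WT libraries. The mean went from −3.20 ± 0.20 to −1.45 ± 0.23, a 3.38-fold shift (two-sided exact permutation p = 0.0286, and 0.114 adjusted over the 4 ratios computed). With 4 libraries a group no smaller p than 0.0286 is possible. The adjusted value does not pass 0.05, and it cannot in this design with 4 ratios unless at least 3 of the ratios reach that smallest p. A ratio shows that the genes changed unequally and not which one moved.

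Acly (ENSMUSG00000020917, chromosome 11, 100476353 to 100528000, minus strand) encodes ATP citrate lyase, which splits citrate in the cytosol to give acetyl-CoA. It reached 181, 187, 89.4 and 132 CPM in NASH and 282, 363, 302 and 545 in WT. Each NASH library lay below each WT library, which 12.2% of all genes tested also showed. Acly fell 2.53-fold, with group levels of 373 ± 120 CPM in WT and 147 ± 45.8 in NASH (mean ± SD of 4 libraries). The log2 fold change was −1.34 ± 0.29 (SE, edgeR adjusted p = 0.0157). NASH replicate 3 was lowest and WT replicate 4 highest, and without WT replicate 4 the change was −1.10. With hepatocyte scaling the change was −0.44 (−1.51 relative to the median gene) and did not pass (adjusted p = 0.191).

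Srebf1 and Acly thus moved in opposite directions in the same livers. Acss2, whose enzyme makes acetyl-CoA from acetate, had 114, 140, 18.3 and 36.1 CPM in NASH and 128, 137, 104 and 473 in WT, with WT replicate 4 far above the rest (change −1.45 ± 0.70, edgeR adjusted p = 0.165). The log2 ratio of Acly to Acss2 differed by 0.23 between groups (two-sided exact permutation p = 0.657, also 0.657 adjusted over the 4 ratios). That difference was −0.09 without NASH replicate 3 and −0.06 without WT replicate 4.

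The carboxylases that make malonyl-CoA differ in where it goes: Acaca's product feeds synthesis in the cytosol, and Acacb's, at the mitochondrion, restrains fatty acid oxidation. Acaca (ENSMUSG00000020532, chromosome 11, 84129672 to 84401651, plus strand) held 131, 194, 160 and 165 CPM in NASH and 144, 179, 135 and 200 in WT. The groups covered nearly the same range, at 162 ± 25.6 and 165 ± 30.4 CPM (change −0.02 ± 0.17 SE, edgeR adjusted p = 0.946). Its sign turned with library totals alone (0.35) and with hepatocyte scaling (1.04, adjusted p = 0.012), which is −0.02 and −0.04 relative to the median gene. Leaving out NASH replicate 1 (0.07), WT replicate 2 (0.02) or WT replicate 4 (0.08) turned it as well.

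Acacb (ENSMUSG00000042010, chromosome 5, 114146535 to 114250761, plus strand) was at 178, 288, 41.3 and 45.2 CPM in NASH and 213, 209, 135 and 416 in WT. NASH replicates 3 and 4 lay below all WT libraries and replicates 1 and 2 within their range. The NASH libraries spanned 6.98-fold, a spread that 4.06% of genes matched or passed, and the WT libraries 3.08-fold. Its change of −0.82 ± 0.62 did not pass (edgeR adjusted p = 0.368), and it went to −1.48 without NASH replicate 2 and −0.43 without WT replicate 4. The log2 ratio of Acaca to Acacb stood at −0.43 (replicate 1), −0.57 (replicate 2), 1.95 (replicate 3) and 1.86 (replicate 4) in NASH and ranged from −1.05 to 0.00 in WT. The group difference of 1.16 did not pass (two-sided exact permutation p = 0.257, 0.343 adjusted over the 4 ratios), and it was 0.75 without NASH replicate 3 and 0.78 without NASH replicate 4.

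Fasn (ENSMUSG00000025153, chromosome 11, 120805846 to 120824547, minus strand) encodes the synthase that builds palmitate from malonyl-CoA. Its libraries stood at 305, 482, 116 and 144 CPM in NASH and 212, 265, 168 and 308 in WT. NASH replicate 2 was above all WT libraries, replicate 1 was just under the highest of them, and replicates 3 and 4 were below them all. The means of 262 ± 169 and 238 ± 61.4 CPM did not differ beyond that spread (change 0.13 ± 0.43 SE, edgeR adjusted p = 0.843). The sign turned without NASH replicate 2 (−0.36), without WT replicate 3 (−0.01) and with limma-voom (−0.01), and with hepatocyte scaling the change was 1.00 (adjusted p = 0.0187), −0.08 relative to the median gene. The log2 ratio of Fasn to Srebf1 averaged 1.28 (NASH, SD 1.06) and 2.51 (WT, SD 0.32), and the difference of −1.23 did not pass ( two-sided exact permutation p = 0.114, 0.229 adjusted over the 4 ratios). It was 1.36, 2.73, 0.36 and 0.66 in NASH replicates 1 to 4 against 2.10 to 2.86 in WT, so replicates 1, 3 and 4 lay below all WT libraries and replicate 2 among them. Without NASH replicate 2 the difference was −1.72 and without NASH replicate 3 it was −0.92.

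Scd1 (ENSMUSG00000037071, chromosome 19, 44394455 to 44407879, minus strand) encodes the desaturase that makes oleate and palmitoleate. It was among the most abundant messages in these livers, with 43467, 60608, 11802 and 15480 CPM in NASH and 26876, 28759, 18475 and 40471 in WT. NASH replicates 1 and 2 were above all WT libraries and replicates 3 and 4 below them all. It took between 1.65% and 6.36% of all counts of a library. The change was 0.20 ± 0.55 (edgeR adjusted p = 0.821), with its sign turned without NASH replicate 2 (−0.30) and with limma-voom (−0.03). Hepatocyte scaling gave 1.02 (adjusted p = 0.0338), −0.06 relative to the median gene.

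Elovl6 (ENSMUSG00000041220, chromosome 3, 129532355 to 129638495, plus strand), whose enzyme lengthens palmitate, had 2, 0, 5 and 0 counts in NASH and 0, 0, 0 and 2 in WT. These 9 counts gave no basis for a test, and a group with 3 counts or fewer is at the floor of what counting can tell. The gene is known to be expressed in mouse liver, and the clock gene Per2 was likewise nearly without counts, with 1 in all libraries. Other genes of the lists were low too, among them Gpd1 (4 counts in NASH, 6 in WT). The macrophage marker Csf1r had 36 counts in each group and the endothelial marker Stab2 had 18 (NASH) and 28 (WT). The hepatocyte marker Ahsg was at 4.82 CPM in NASH and 4.43 in WT. Why they are so low in this table was not tested.

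Me1 (ENSMUSG00000032418, chromosome 9, 86581371 to 86695953, minus strand) encodes malic enzyme, a cytosolic source of the NADPH that fatty acid synthesis uses. It measured 409, 566, 129 and 110 CPM in NASH and 427, 424, 340 and 704 in WT. As for Acacb, NASH replicates 3 and 4 fell outside the WT range on its low side and replicates 1 and 2 within it. The change of −0.64 ± 0.51 did not pass (edgeR adjusted p = 0.389). It became −1.15 without NASH replicate 2 and −0.38 without NASH replicate 4, and with hepatocyte scaling it turned to 0.20, which is −0.88 relative to the median gene.

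Thrsp (ENSMUSG00000035686, chromosome 7, 97412938 to 97417730, minus strand) encodes Spot 14, a small protein induced by thyroid hormone and carbohydrate that promotes lipogenesis. Its values were 398, 205, 10.5 and 27.1 CPM in NASH and 261, 213, 251 and 432 in WT. NASH replicate 1 lay inside the WT range, replicate 2 just under it, and replicates 3 and 4 far under it. The span in NASH was 37.9-fold, which 0.296% of genes matched or passed, against 2.02-fold in WT, which 18.7% matched or passed. With that spread the change of −0.85 ± 0.90 did not pass (edgeR adjusted p = 0.515), and it was −1.84 without NASH replicate 1 and −0.47 without NASH replicate 3.

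The same pair of libraries was low for a run of enzymes. Against the WT mean of log2 CPM, NASH replicates 3 and 4 stood at −4.72 and −3.36 for Thrsp, −2.43 and −2.30 for Acacb, −1.82 and −2.05 for Me1, −1.22 and −0.83 for Scd1 and −1.01 and −0.68 for Fasn. In NASH replicate 2 these genes lay between −0.44 (Thrsp) and 1.14 (Scd1), and in replicate 1 between −0.33 (Acacb) and 0.66 (Scd1). Srebf1 and Acaca did not share the pattern: in replicates 3 and 4 Srebf1 was at 1.14 and 1.17 and Acaca at −0.02 and 0.02. Those 2 libraries also had the highest macrophage marker sums, 2390 and 1620 CPM, and the lowest mitochondrial shares of counts, 0.848% and 1.13% against 1.65% to 2.20% in the other 6 libraries. Hepatocyte marker sums were below all WT libraries in each NASH library, at 42944 CPM in replicate 3 and 99148 in replicate 4, the lowest and the highest of the NASH sums. The part of any of these in the low values was not tested. Among WT libraries, replicate 4 was highest for every one of the 9 genes.

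**Figure D3:**
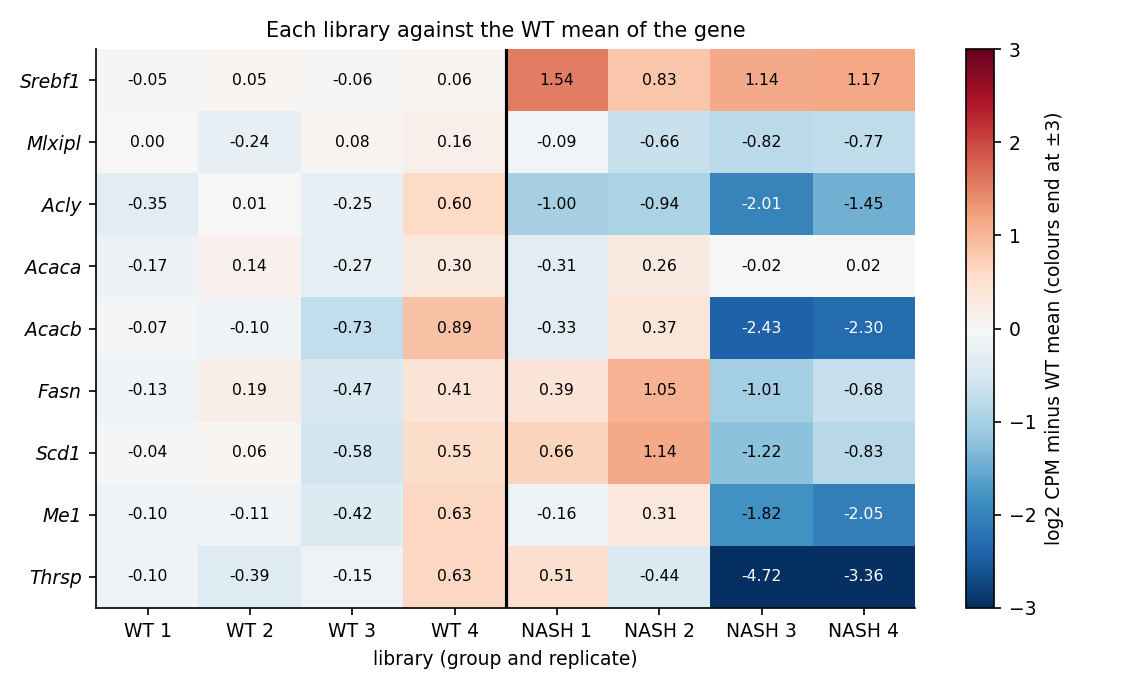
Log2 CPM of each tested gene in each library less its WT mean, with WT libraries left and NASH libraries right of the black line (colours end at ±3 and the numbers give the values). NASH replicates 3 and 4 hold the lowest values, −4.72 and −3.36 for Thrsp, while Srebf1 is positive in all 4 NASH libraries under TMM scaling.

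**Figure D4:**
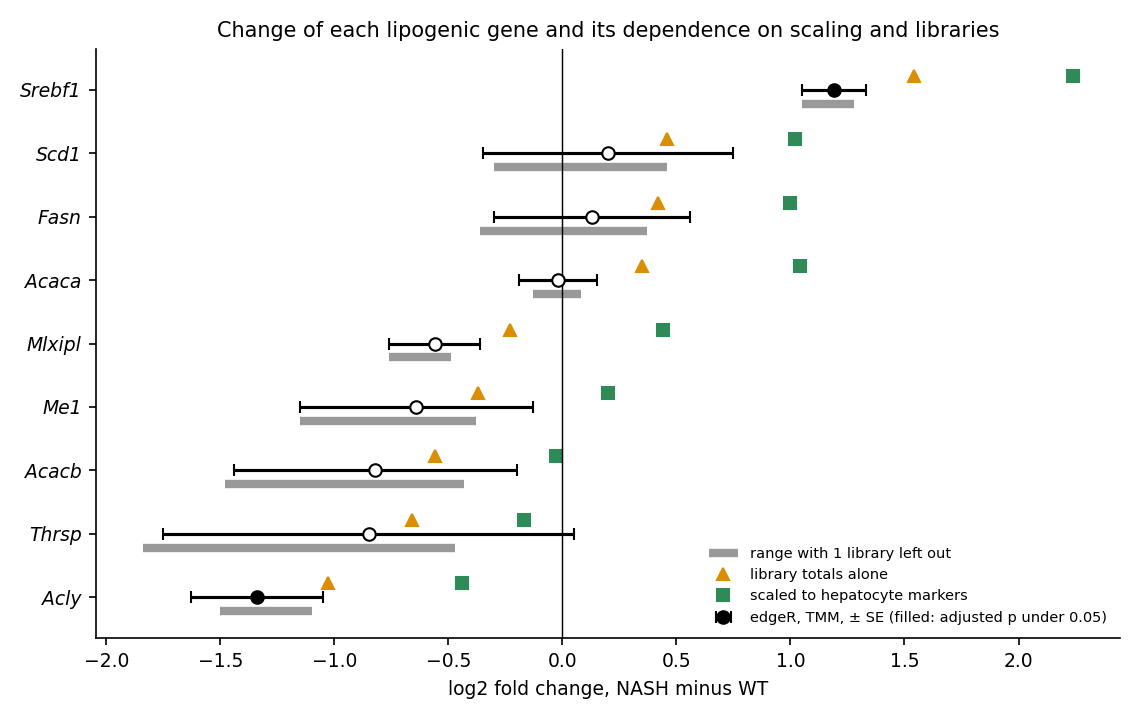
Change of each tested gene as log2 fold change, NASH minus WT, on the x axis, with the TMM estimate ± SE (filled where the adjusted p was under 0.05), the range with 1 library left out (grey), and the estimates with library totals alone (triangles) and with hepatocyte scaling (squares). Srebf1 lies above 0 and Acly, Acacb and Thrsp below 0 under these scalings, and Mlxipl, Me1 and Acaca turn positive with hepatocyte scaling, Acaca also with library totals alone.

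Levels can be set beside each other between genes only per length, here as CPM per kilobase of exon from GENCODE M21. Scd1 came first, at 6713 in NASH and 5856 in WT, rank 3 and rank 8 of 12288 genes. No library of another member reached the lowest Scd1 library in either group. Thrsp (132) and Me1 (123) followed in WT with ranges that overlapped, then Acly (70.6) and Mlxipl (68.4), also overlapping, then Acacb (25.3) and Fasn (21.8), which overlapped as well. Acaca (9.64) and Srebf1 (7.26) were lowest in WT, and their libraries did not overlap with each other. In NASH, Srebf1 at 16.6 stood above Acacb at 14.3 and Acaca at 9.51, but its libraries overlapped with those of Acacb and of Fasn (23.9). Mlxipl, at 46.3 in NASH, was separate from Acly at 27.9, whereas in WT the 2 overlapped.

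The genes whose log2 CPM profile over the 8 libraries lay nearest to that of Srebf1, out of 11358 searched, were Trim30d, Xaf1 and Tbc1d31, with root mean square differences of 0.20, 0.21 and 0.22. Nearest to Fasn were Slc22a15 (0.13), Scd1 (0.16) and Acyp1 (0.25). Scd1 is thus the only lipogenic gene among those 6 neighbours, and Srebf1 itself was 0.92 from Fasn. These distances describe 8 libraries that share 2 groups and their depth.

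**Figure D5:**
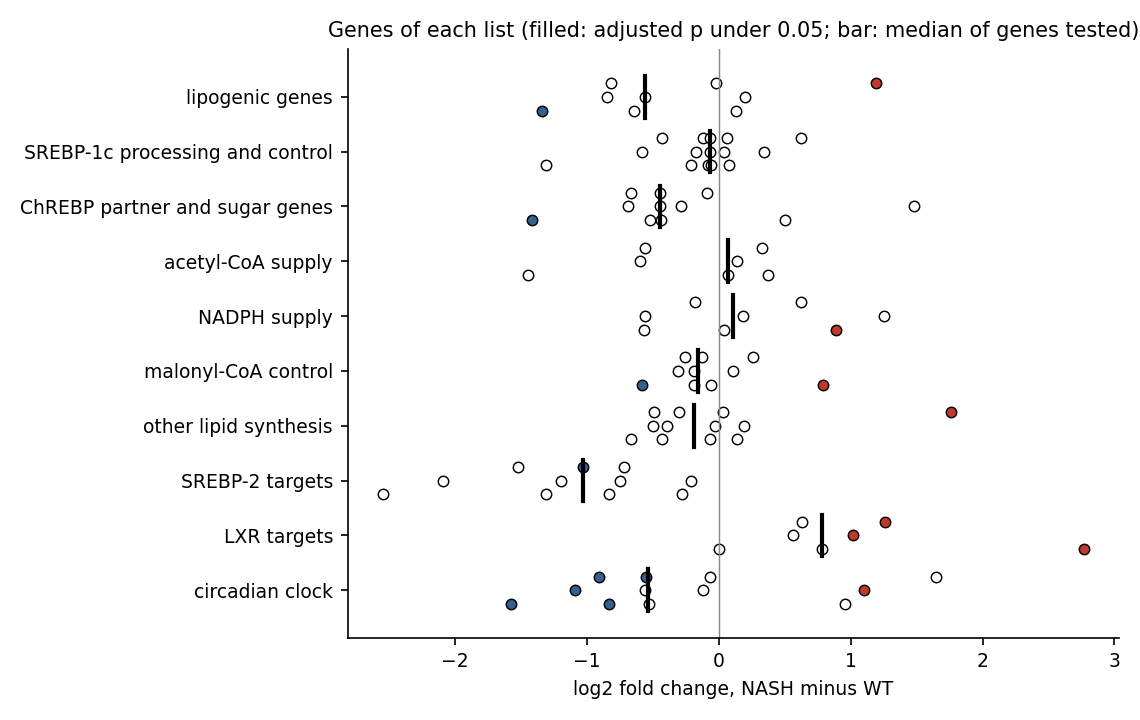
Log2 fold change, NASH minus WT, of each tested gene of the lipogenic set and 9 related lists, with filled points for an adjusted p under 0.05 (red higher, blue lower) and black bars for the list medians under TMM scaling. The SREBP-2 targets all lie below 0 (6 of 11 with hepatocyte scaling) and the LXR targets at or above 0 (1 of 7 below it with RLE size factors).

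Around these genes, 9 lists of related genes were counted in the same fit. Of their 93 genes tested, 15 passed, 7 higher and 8 lower. That is 16.1%, near the 18.9% of all genes tested that were called in either direction. The number passing went to 31 when NASH replicate 1 was left out and to 8 when NASH replicate 4 was. It was 6, 9 and 8 when WT replicates 1, 3 and 4 were each left out. The list medians below move by about the shift of the median gene under the other scalings and are read beside the all-gene median of 0.01.

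None of the 15 genes that process SREBP or transcribe its gene passed (median −0.07). Insig1, an SREBP target that retains SREBP in the endoplasmic reticulum, had 130, 102, 27.2 and 34.8 CPM in NASH and 169 to 204 in WT. All its NASH libraries lay below the WT ones, yet the change of −1.31 ± 0.45 did not pass (edgeR adjusted p = 0.0712, or 0.0144 without NASH replicate 1). For Srebf2, the gene of the sterol-regulating paralog, the change was −0.43 ± 0.15 (adjusted p = 0.075, or 0.0372 without NASH replicate 2). Scap gave −0.58 ± 0.22 (adjusted p = 0.0866), Insig2 −0.17 ± 0.23 (0.634) and Nr1h3, the gene of LXRα, −0.12 ± 0.09 (0.362). Srebf2, Scap, Insig2 and Nr1h3 turned positive with hepatocyte scaling, and Insig2 and Nr1h3 also with library totals alone.

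Among the 7 LXR targets tested, 3 rose and none fell (median 0.78), beside 12.9% of all genes called higher and 6.00% called lower. With library totals alone 6 of the 7 were higher, beside 3071 of all 12351 genes tested. With hepatocyte scaling all 7 were higher, beside 8226 of all 12351. Abcg1, a cholesterol exporter, lay between 4.73 and 9.70 CPM in WT and rose to 20.4, 26.6, 74.1 and 69.0 in NASH (log2 fold change 2.77 ± 0.44, edgeR adjusted p = 0.00749). Abcg1 is also a macrophage gene, and its NASH libraries took the order high in replicates 3 and 4 that the macrophage sums had. Abcg5, which sends sterols into bile, lay between 48.9 and 87.2 CPM in WT and rose to 220, 130, 143 and 148 in NASH (1.26 ± 0.22, adjusted p = 0.00855), and was highest in replicate 1, as Srebf1 was. The third was Mylip, which marks the LDL receptor for degradation (1.02 ± 0.26, adjusted p = 0.0257). It lay between 11.0 and 21.2 CPM in WT and rose to 24.8, 24.9, 39.0 and 46.1 in NASH. Like Abcg1, it was higher in NASH replicates 3 and 4 than in replicates 1 and 2. What sets these orders was not tested. Without NASH replicate 1, 5 of the list passed.

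The 11 SREBP-2 targets of cholesterol synthesis and uptake had a median of −1.03 and were all below 0 with TMM scaling, but 1 of them passed (lower). Idi1, an isoprenoid isomerase, was at 11.7, 24.9, 2.59 and 2.46 CPM in NASH and 32.1 to 53.4 in WT, with no overlap, and its change did not pass (log2 fold change −2.09 ± 0.67, edgeR adjusted p = 0.0579, or 0.0163 without NASH replicate 2). The number passing was 5 with DESeq2 and 5 with limma-voom, 3 without NASH replicate 1, 4 without NASH replicate 2, and 0 without NASH replicate 4 or any 1 WT library.

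Of 11 sugar and ChREBP-linked genes tested, G6pc alone passed (median −0.45). G6pc, which releases glucose from the hepatocyte, lay between 684 and 1024 CPM in WT and fell to 375, 551, 99.2 and 337 in NASH (log2 fold change −1.42 ± 0.43, edgeR adjusted p = 0.0492). The call was lost without NASH replicate 4 or any 1 WT library (adjusted p = 0.0759 to 0.115), and with hepatocyte scaling (−0.62, 0.0735), limma-voom (0.0587) or no low-count filter (0.0514). Pklr, a classical ChREBP target of glycolysis, was low throughout, at 1.90 to 5.59 CPM in NASH and 5.05 to 6.51 in WT (−0.67 ± 0.31, adjusted p = 0.147, or 0.0304 without NASH replicate 1). Why Pklr stood so low in these counts was not tested. Mlx, the partner of ChREBP, gave −0.29 ± 0.11 (adjusted p = 0.0857) with no overlap of the groups. Pklr and Mlx turned positive with hepatocyte scaling, and Mlx also with library totals alone.

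Among suppliers of acetyl-CoA none of 7 passed (median 0.07), and Mdh1 of the malate cycle had −0.60 ± 0.32 (edgeR adjusted p = 0.207, or 0.0367 without NASH replicate 1, and a positive sign with hepatocyte scaling). Of 8 genes for NADPH, Pgd rose (median of the list 0.11). Pgd, of the pentose phosphate pathway, lay between 31.5 and 46.7 CPM in WT and rose to 51.0, 66.6, 92.7 and 67.8 in NASH (0.89 ± 0.19, adjusted p = 0.0151, or 0.0533 without WT replicate 1). G6pdx, which opens that pathway, had 8.19, 10.5, 24.6 and 17.2 CPM in NASH and 3.05 to 10.1 in WT (1.25 ± 0.42, adjusted p = 0.066, or 0.024 without NASH replicate 1). Both were highest in NASH replicate 3, where Me1 was 129 CPM.

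The 10 genes that control malonyl-CoA included 1 that rose and 1 that fell (median −0.16), both subunits of AMP-activated protein kinase, which phosphorylates and restrains the carboxylases. Prkaa2, a catalytic subunit, fell (−0.58 ± 0.14, edgeR adjusted p = 0.0245) and Prkab2, a scaffold subunit, rose (0.79 ± 0.20, adjusted p = 0.026). The Prkaa2 call was lost without NASH replicate 4 or any 1 WT library (adjusted p = 0.0551 to 0.0701) and with library totals alone (−0.24, 0.128), and its sign turned with hepatocyte scaling (0.44). The Prkab2 call was lost without NASH replicate 3 or 4 or WT replicate 1, 3 or 4 (adjusted p = 0.0538 to 0.0776). Mid1ip1, a paralog of Thrsp that activates Acaca, had 12.7 to 20.0 CPM in NASH and 9.08 to 18.5 in WT (0.26 ± 0.22, adjusted p = 0.406) and none of the drop seen for Thrsp in replicates 3 and 4.

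In the rest of lipid synthesis, 1 of 12 genes passed (median −0.19). The low values in NASH replicates 3 and 4 were not particular to the lipogenic set. NASH replicates 1 to 4 had 449, 654, 36.4 and 98.4 CPM for Lpin1 (WT 446 to 533). For Fads1 they had 773, 943, 111 and 113 (WT 589 to 830). In Elovl5, Fads2, Gpam, Agpat2, Dgat2 and Acsl5, too, replicates 3 and 4 lay below all WT libraries. For Scd2, Dgat1, Pnpla3 and Acsl3 this did not hold. Replicates 1 and 2 also lay below all WT libraries in Agpat2, replicate 1 in Gpam and Acsl5, and replicate 2 in Dgat2. Scd2, a desaturase paralog of Scd1, rose 3.38-fold, from 13.1, 22.3, 14.8 and 33.3 CPM in WT to 41.1, 65.9, 105 and 70.3 in NASH (log2 fold change 1.76 ± 0.35, edgeR adjusted p = 0.0131, passing with each library left out). All NASH libraries lay above all WT libraries, and the highest was NASH replicate 3, the NASH library with the least Scd1 and the most macrophage marker RNA. Reads that the paralogs share could be split between them, and Scd1 is far more abundant. Agpat2, of phospholipid and triglyceride assembly, gave −0.43 ± 0.15 (adjusted p = 0.0676, or 0.0274 without NASH replicate 1) and turned positive with hepatocyte scaling.

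The circadian clock sets daily rhythms of lipogenic genes in liver, and the time of day at which the livers were taken is not given in the sources used here. Of 12 clock genes tested, 1 rose (Nr1d1) and 5 fell (Arntl, Clock, Cry1, Cry2 and Hlf), with a median of −0.54, beside 12.9% of all genes called higher and 6.00% called lower. With library totals alone 2 were higher and 3 lower (median −0.21, against 0.37 over all genes). Of all 12351 genes, 3071 were then higher and 220 lower. With hepatocyte scaling 4 clock genes were higher and none lower (median 0.47, against 1.07 over all genes). Of all 12351 genes, 8226 were then higher and 45 lower. Cry1, a repressor of the clock, lay between 51.9 and 62.3 CPM in WT and fell to 26.0, 16.4, 17.0 and 16.2 in NASH (−1.58 ± 0.16, edgeR adjusted p = 0.00241, or −0.54 and 0.154 with hepatocyte scaling). Arntl, which encodes the activator BMAL1, lay between 15.2 and 20.5 CPM in WT and fell to between 8.23 and 10.3 in NASH (−0.91 ± 0.14, adjusted p = 0.00728), with a positive sign under hepatocyte scaling (0.16) and −0.54 with library totals alone (0.0544). Within NASH, Arntl was at 8.23, 10.3, 9.06 and 8.57 CPM in replicates 1 to 4, and Hlf at 92.5, 71.7, 34.9 and 61.7. The clock count was 3 without WT replicate 1. Whether clock phase has a part in the lipogenic values was not tested.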

How the data were processed

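For all 8 libraries, liver RNA was extracted with Trizol and prepared with a TruSeq stranded total RNA kit, per the labels' protocols. The submitters' processing notes name HISAT2, HTSeq 0.9.1 and the builds mm9 and mm10 without their roles. What strand setting and annotation the counting used was not given in the sources used here. Per the file headers, the values deposited are raw counts of reads for 16122 protein-coding genes. Another 8 columns, of the authors' normalized values, were not used. Columns named Control were read as the samples labelled WT. Without the strand setting, reads of overlapping genes on opposite strands cannot be told apart, but the exons of these genes overlap with others by at most 235 bases.

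Genes were kept by edgeR's default low-count filter, scaled by TMM and tested with edgeR 4.0.16 (quasi-likelihood F-test, robust, two-sided, R 4.3.3) on all 8 libraries without covariates, with Benjamini-Hochberg adjustment over 12351 genes. The SE is the size of the log2 fold change divided by the root of F. The biological coefficient of variation was 29.2%. CPM used for profiles and deviations had a prior count of 2 before log2. Within-library ratios added 0.5 to each count. Exact permutation tests enumerated 70 assignments. Between libraries of a group the counts differed far beyond sampling noise (chi-square per degree of freedom 21.3 to 495), so none were taken as duplicates, although NASH replicates 1 and 4 have totals that differ by 1 count. The edgeR script was tested on simulated data.

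Replicate numbers were checked for pairing. Deviations of same-numbered libraries from their group means correlated at 0.0344, −0.139, −0.144 and −0.0157, so the numbers were not treated as pairs. Alternatives were library totals, RLE factors and hepatocyte marker counts for scaling, DESeq2 1.42.0, limma-voom (limma 3.58.1), no filter, a replicate block, and each library left out.

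The genes, the lists and the tests were chosen with earlier results of these data known. Of 174 list entries 171 were matched, and Tkfc, Mvd and Adgre1 were not. Named genes are all 10 members, the 2 of lowest p in each related list, 11 regulators and neighbours fixed by name, and the 3 nearest profiles to Srebf1 and to Fasn among genes with a mean of at least 1 CPM. Other genes (Mylip, Per2, Gpd1, Csf1r, Stab2, Ahsg, the lipid synthesis genes set beside the low NASH libraries, and those named when 5 or fewer were called) were chosen after their values were seen. Gene positions and exon lengths are from GENCODE M21 (GRCm38) and promoters from RefSeq (GRCm38.p6). Some genes that the rule names are not reported here.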

Additional observations from a re-analysis of the deposited data

Results flagged for a closer look

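The sum of the 15 hepatocyte markers in NASH replicate 3, 42944 CPM, stood apart from the other 3 NASH libraries (94462 to 99148 CPM) by more of the group's range than Dixon's 95% critical value for 4 samples allows. Alb, the serum albumin gene that makes up most of that sum, was at 31693 CPM in the same library against 75863 to 79641 in the other 3. The second value is therefore not independent of the first. No level of a lipogenic gene stood apart by more than that critical value. In Acacb, Fasn, Scd1, Me1 and Thrsp the low values of NASH replicates 3 and 4 came as a pair. For Mlxipl, NASH replicate 1 (354 CPM) lay above the other NASH libraries (213 to 238) but did not pass that value. In all 36 groups of 4 values were examined, and chance alone singles out about 1 group in 20.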

How the results depend on the processing

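Srebf1 stayed higher and past the threshold under all 15 alternatives run. Acly stayed below 0 in all of them but did not pass with hepatocyte scaling (−0.44) or with the replicate block (−1.35, adjusted p = 0.0517). The block fit also lowered the calls to 618 over all genes, 1 among the lipogenic genes and 6 among the related lists, gave −0.06 for Fasn and −0.06 for Scd1, and ended the calls of G6pc (adjusted p = 0.055), Pgd (0.0549), Prkaa2 (0.0582) and Prkab2 (0.0829), among others. Hepatocyte scaling gave 8271, 4 and 47 calls and changes of 0.44 for Mlxipl, 1.04 for Acaca, 1.00 for Fasn, 1.02 for Scd1 and 0.20 for Me1, and by its construction it raised all genes together. It also turned Srebf2 (0.59), Mlx (0.72), Mdh1 (0.28), Prkaa2 (0.44), Agpat2 (0.56), Arntl (0.16), Nr1h3 (0.92), Insig2 (0.82), Scap (0.36) and Pklr (0.22). Library totals alone gave 24 calls in the related lists and turned Acaca (0.35), Mlx (0.06), Nr1h3 (0.24) and Insig2 (0.17). DESeq2 called 3527 genes, 28 in the related lists and Mlxipl (−0.57), and limma-voom gave −0.01 for Fasn and −0.03 for Scd1. With 1 library left out, calls over all genes ranged from 821 to 3742 and those of the related lists from 6 to 31, and changes ranged from −0.76 to −0.49 for Mlxipl, −0.13 to 0.08 for Acaca, −0.36 to 0.37 for Fasn and −0.30 to 0.46 for Scd1, and the Acly to Acss2 difference from −0.09 to 0.53. Where not stated, the cause was not tested. The next counts cover the named genes and the call counts of the related lists, and the lipogenic calls in each direction. They include the changes of these given above. In them, 400 settings left the direction and the call as they were, 33 lost a call, 18 gained one, 13 turned the sign and 61 moved a count by over 1.5 times. Elovl6, at 9 counts in all, was left out by the filter on low counts, while the other 9 genes had 414 or more counts in every library.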
